A study of Homo sapiens with 8 samples.

Results

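The let-7 passenger strands are the 3p arms of the let-7 miRNA hairpins, and they were followed here in small RNA libraries of H1299 cells. A list of 5 of them was drawn up, hsa-let-7a-3p, hsa-let-7a-2-3p, hsa-let-7b-3p, hsa-let-7d-3p and hsa-let-7f-2-3p, and those with a row in the deposited tables of normalized counts were kept. This left 4 of the 5, among 945 miRNA rows in all, and hsa-let-7d-3p was not analysed here. A row means that the strand had reads in at least some libraries, so the presence of reads is not a finding.

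The H1299 line, from a non-small cell lung carcinoma, lacks p53. Cells with an empty vector (EV) and cells stably expressing the mutant p53 protein R273H (R273H) were left untreated or were given etoposide, a topoisomerase II poison that breaks DNA, for 24 h, and each of the 4 groups had 2 libraries. The sample labels give the etoposide dose as 10 µM in one field and as 10 mM in another. The R273H line was grown from colonies that resisted G418 after transfection with a pCMV plasmid, while the EV line had been infected with an empty vector and came from another laboratory, so mutant p53 and other differences between the lines cannot be told apart. Both lines were at passage 15 to 20. The study calls the libraries of a group biological replicates, but nothing in the labels says that they came from separate cultures, so the p-values measure the spread between libraries, which may be technical.

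A let-7 precursor is cut by Dicer into a duplex of a 5p and a 3p arm. The 5p arm is usually loaded into Argonaute as the guide, and the 3p arm, the passenger strand, is mostly degraded. The let-7 guides are known for limiting proliferation genes such as RAS and HMGA2 in lung. Humans carry several let-7 hairpins, some of which give the same guide, and there the passenger strand tells the hairpins apart.

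The mature strands are printed because they show what separates the let-7a hairpins. Capitals mark the seed, bases 2 to 8 from the 5′ end, which directs target pairing. Sequences are from RefSeq (GRCh38.p14), where 4 of the 5 listed passenger strands were matched, and hsa-let-7f-2-3p is given by name only. The first is shared by MIRLET7A1 and MIRLET7A3, the second comes from MIRLET7A2 alone, and the last line is the let-7a guide that all 3 hairpins give.
hsa-let-7a-3p: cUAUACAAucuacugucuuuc
hsa-let-7a-2-3p: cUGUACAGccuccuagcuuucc
hsa-let-7b-3p: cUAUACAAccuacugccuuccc
hsa-let-7a-5p: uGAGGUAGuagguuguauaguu

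Counted from the 5′ end, with the let-7a-3p base first, let-7a-3p and let-7a-2-3p differed at 6 of 21 aligned bases (A3G, A8G, U9C, A12C, G15A and U16G), of which 2 lie in the seed. Against let-7b-3p, let-7a-3p differed at 3 bases (U9C, U16C and U20C) and at 0 in the seed. The seed UAUACAA of let-7a-3p was shared by 4 mature human miRNAs in the RefSeq table, let-7a-3p, let-7b-3p, let-7f-1-3p and miR-98-3p. The seed UGUACAG of let-7a-2-3p was shared with let-7g-3p alone. The GC content was 33.3% in let-7a-3p, 54.5% in let-7a-2-3p and 50.0% in let-7b-3p.

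In GRCh37, the build of the study, the let-7a-3p arm matched chr9:96938295-96938315 (plus strand, MIRLET7A1) and chr22:46508680-46508700 (plus strand, MIRLET7A3). These hairpins overlap exons of the long noncoding RNA genes MIRLET7A1HG and MIRLET7BHG. The let-7a-2-3p arm matched chr11:122017231-122017252 (minus strand, MIRLET7A2), in an intron of the long noncoding RNA gene MIR100HG. The let-7b-3p arm matched chr22:46509625-46509646 (plus strand, MIRLET7B), in a hairpin 863 bases from that of MIRLET7A3. MIRLET7F2, the hairpin of let-7f-2-3p, lies at chrX:53584153-53584235 (minus strand) in an intron of HUWE1. Reads of let-7a-3p from chromosomes 9 and 22 have the same sequence and cannot be separated.

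The libraries held 234545 to 579367 reads on annotated features, of which 90.8% to 98.2% were miRNA reads. The 2 libraries of a group were not copies of each other (chi-square over its degrees of freedom, 32.3 to 70.4). The passenger strands were rare at this depth. The 4 strands summed to 290 reads over the 8 libraries, against 78302 reads for the 9 let-7 guides (miR-98-5p, a let-7 family member, included). By summed reads let-7a-3p ranked 179 of 945 miRNAs with 168 reads, let-7a-2-3p 248 with 62, let-7b-3p 288 with 36 and let-7f-2-3p 330 with 24. The guide let-7a-5p ranked 11 with 60900 reads. Intervals below are 95% intervals from read counts. They cover counting error only, not the spread between libraries, and PCR copies among the reads cannot be told apart.

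The let-7a passenger strand of chromosomes 9 and 22, let-7a-3p, was higher in R273H than in EV cells with and without etoposide. The 2 untreated EV libraries held 6 and 5 reads of let-7a-3p (11.2 and 20.0 RPM, reads per 1000000 miRNA reads). The 2 untreated R273H libraries held 46 and 13 reads of let-7a-3p (102 and 32.0 RPM). The lower R273H library was still above both EV libraries, but the Wilson interval of that library (18.7 to 54.7 RPM) overlapped that of EV replicate 2 (8.55 to 46.9). After etoposide let-7a-3p had 1 and 4 reads in EV (4.69 and 11.04 RPM) and 50 and 43 reads in R273H (98.7 and 123 RPM). Each of the 4 R273H libraries thus lay above each of the 4 EV libraries, as for 9.28% of 334 miRNAs with a mean of at least 3 reads.

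In the untreated libraries let-7a-3p had 4.15 and 7.97 normalized counts in EV and 47.2 and 11.6 in R273H. Its log2 fold change, on the log2(normalized count + 1) scale, was 1.86 ± 0.61 (standard error, SE, adjusted p = 0.0366, limma over 304 miRNAs). It met both criteria of the study, an unadjusted p under 0.05 and at least 2-fold change, applied there to DESeq and here to limma. It was the 1 called of the 3 passenger strands that passed the filter of a mean normalized count of at least 3, while 27.3% of all miRNAs tested met both criteria and 16.4% of all tested were called higher. The size of the change depended on single libraries. Without R273H untreated replicate 1 the log2 fold change was 0.88 (adjusted p = 0.475), and without EV untreated replicate 1 it was 1.46 (adjusted p = 0.183), neither of which met both criteria. Without R273H untreated replicate 2 it was 2.83 and without EV untreated replicate 2 it was 2.26, and both met them.

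**Figure D1:**
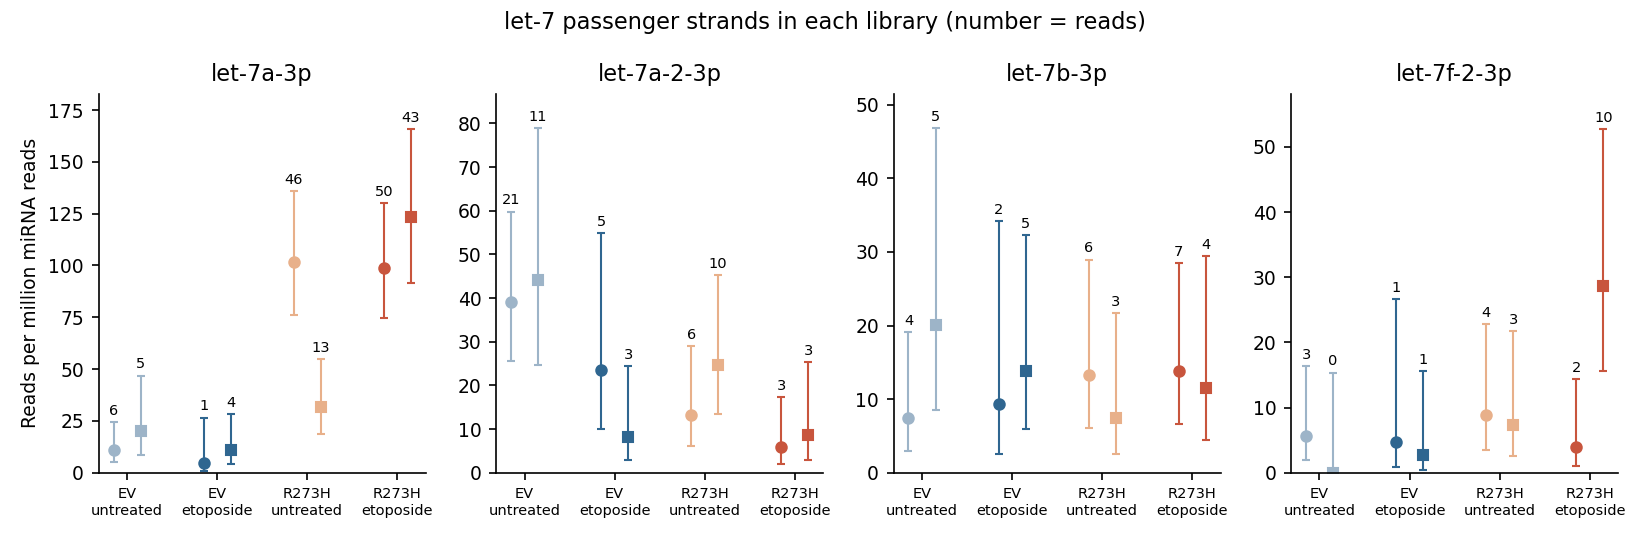
RPM (reads per 1000000 miRNA reads) of each passenger strand (y axis, a separate linear scale per panel) in the 8 libraries, grouped by line and treatment (x axis). Circles are replicate 1 and squares replicate 2, bars are 95% Wilson intervals for counting error, and the number above each bar is the read count. The 4 R273H libraries of let-7a-3p sit at 32.0 to 123 RPM and the 4 EV libraries at 4.69 to 20.0, while let-7b-3p shows overlapping groups.

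Under etoposide the difference of let-7a-3p between the lines was tested on the recovered reads, since no table holds both treated groups. The log2 fold change of R273H against EV was 3.23 ± 0.67 (SE, adjusted p = 6.11e-05, edgeR over 334 miRNAs in all 8 libraries). Of these 334 miRNAs 25.7% met both criteria and 10.5% were called higher, and let-7a-3p was the 1 called of 4 passenger strands tested. Leaving out each library in turn gave log2 fold changes of 2.59 to 4.44. Counted over the pooled reads of each group, let-7a-3p was 4.92-fold higher per miRNA read in untreated R273H cells (exact interval 2.56 to 10.4) and 12.5-fold higher under etoposide (5.17 to 39.4). Whether the difference itself depended on etoposide was not resolved, since the interaction was 1.06 on the log2 scale (adjusted p = 1, edgeR). In that test 0 of the 4 passenger strands and 3.59% of 334 miRNAs met both criteria, and edgeR gave 0 miRNAs with an adjusted p under 0.05 (12 with an unadjusted one), as did DESeq2 (0 and 10). With 1 library left out the interaction of let-7a-3p ran from 0.30 (without EV etoposide replicate 1) to 2.31 (without R273H untreated replicate 1), and it met both criteria in the latter fit (adjusted p = 0.888, edgeR).

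With all libraries of a comparison in the fit, etoposide gave no called change of let-7a-3p within either line. In EV its normalized counts went from 3.87 and 7.57 to 0.95 and 3.94, a log2 fold change of -1.06 ± 0.83 (SE, adjusted p = 0.919, limma). These counts overlapped between the groups. In RPM the groups did not overlap, but the margin was 11.04 (treated replicate 2, 4 reads) against 11.2 (untreated replicate 1, 6 reads). The Wilson intervals of these libraries overlapped, and 5.39% of 334 miRNAs were lower without overlap in RPM. In R273H the normalized counts of let-7a-3p went from 61.2 and 15.4 to 41.2 and 31.9, a log2 fold change of 0.23 ± 0.50 (SE, limma). The R273H groups overlapped, and the value depended on the 2 untreated libraries. It was 1.19 (adjusted p = 0.244) without R273H untreated replicate 1 and -0.74 (adjusted p = 0.325) without R273H untreated replicate 2, so no direction can be given.

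The other let-7a passenger strand, let-7a-2-3p of the chromosome 11 hairpin, had lower values after etoposide in both lines. Neither change passed the correction for multiple tests. The untreated EV libraries held 21 and 11 reads of it (39.1 and 44.03 RPM) and the treated ones 5 and 3 (23.5 and 8.28 RPM). In R273H the untreated libraries held 6 and 10 reads (13.3 and 24.6 RPM) and the treated ones 3 and 3 (5.92 and 8.60 RPM). Both treated libraries of each line lay below both untreated libraries of that line. In RPM, 5.39% of 334 miRNAs were lower without overlap in EV and 3.29% in R273H, and 3 miRNAs (0.898%) were lower in both lines, let-7a-2-3p among them. On that scale 31.1% were higher without overlap in EV and 54.2% in R273H.

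On normalized counts let-7a-2-3p went from 13.5 and 16.7 to 4.77 and 2.95 in EV after etoposide. Its log2 fold change was -1.75 ± 0.68 (SE, adjusted p = 0.302, limma over 296 miRNAs). It met both criteria, as did 6.76% of the miRNAs tested (4.39% in the lower direction), and it was the 1 called of 3 passenger strands tested, but it failed the correction for multiple tests, which 2 miRNAs of the 296 passed. In R273H the normalized counts went from 7.98 and 11.8 to 2.47 and 2.23, a log2 fold change of -1.68 ± 0.58 (SE, adjusted p = 0.472, limma over 341 miRNAs). It was the 1 called of 4 passenger strands tested, where 6.16% of all miRNAs met both criteria and 3.23% were called lower. In that comparison limma gave 0 miRNAs with an adjusted p under 0.05 (31 with an unadjusted one), edgeR gave 3 and DESeq2 gave 2.

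Both changes of let-7a-2-3p rest on few reads. Per miRNA read the pooled ratio of treated to untreated was 0.342 in EV (exact interval 0.136 to 0.758, 8 against 32 reads) and 0.376 in R273H (0.121 to 1.01, 6 against 16 reads). The R273H interval includes 1. In R273H the treated mean was 2.35 normalized counts, below 3, so the strand passed the filter there through the untreated libraries. Leaving out 1 library at a time kept the log2 fold change between -2.02 and -1.47 in EV, and the call was lost without EV untreated replicate 1 or replicate 2 (adjusted p = 0.830 and 0.996). In R273H it stayed between -1.94 and -1.42 and lost the call without untreated replicate 2 (adjusted p = 0.379), treated replicate 1 (0.604) or treated replicate 2 (0.985). The difference between the lines in this response was -0.087 on the log2 scale (edgeR, not called).

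Between the lines let-7a-2-3p leaned the other way from let-7a-3p. In untreated cells it had 14.5 and 17.5 normalized counts in EV and 6.16 and 8.89 in R273H, and the groups did not overlap, which held in the lower direction for 26.6% of 334 miRNAs in RPM. Its log2 fold change was -1.01 ± 0.52 (SE, adjusted p = 0.182, limma), and it did not meet both criteria. The same comparison met both criteria in edgeR (-1.23, adjusted p = 0.123) and in limma without the intensity trend (adjusted p = 0.127). Under etoposide the libraries of the lines overlapped, and the log2 fold change was -1.31 (adjusted p = 0.289, edgeR).

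**Figure D2:**
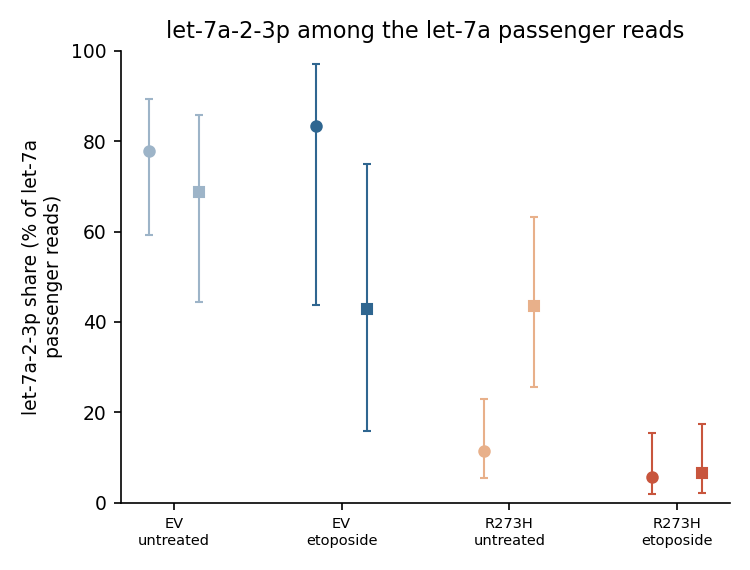
Share of let-7a-2-3p among the let-7a passenger reads (let-7a-3p plus let-7a-2-3p, y axis, percent) in each of the 8 libraries by line and treatment (x axis). Circles are replicate 1, squares replicate 2 and bars 95% Wilson intervals. EV libraries lie between 42.9% and 83.3% and R273H libraries between 5.66% and 43.5%.

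The 2 let-7a passenger strands were also set against each other within each library, a share that needs no normalization between libraries. In EV let-7a-2-3p made up 77.8% and 68.8% of the let-7a passenger reads in untreated cells and 83.3% and 42.9% after etoposide. In R273H it made up 11.5% and 43.5% in untreated cells and 5.66% and 6.52% after etoposide. Most EV libraries thus held mainly the chromosome 11 strand. All R273H libraries held more of the strand of chromosomes 9 and 22, though R273H untreated replicate 2 only by 13 against 10 reads. The denominators were small in EV, between 6 and 27 reads, and 23 to 53 in R273H, and the Wilson intervals of the treated EV libraries ran from 43.6% to 97.0% and from 15.8% to 75.0%.

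Over the 4 libraries of each line the share averaged 68.2% ± 17.9 for EV and 16.8% ± 18.0 for R273H (mean ± SD), a difference of -51.4 percentage points. An exact two-sided permutation test, with the line labels permuted within each treatment, gave p = 0.0556, the smallest the 36 arrangements allow, and 0.0741 after adjustment over 4 such tests. The design could therefore not reach 0.05. The lines met at 1 point, since the lowest EV library (42.9%) lay just under the highest R273H library (43.5%).

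Passenger reads per 1000 reads of the guide compare the 3p and 5p arms within a library, which come from 1 hairpin only for let-7b. For let-7a the guide cannot be assigned to a hairpin, so the reads of both passenger strands were added. They came to 2.79 and 3.02 per 1000 let-7a-5p reads in untreated EV and to 1.18 and 0.709 in EV after etoposide. In R273H they came to 6.47 and 3.58 in untreated cells and to 5.51 and 6.67 after etoposide. All R273H libraries were above all EV libraries, with a mean difference of 3.63 per 1000 (exact permutation p = 0.0556, the smallest possible, adjusted p = 0.0741). The share above and the let-7f-2-3p ratio below had the same p, so it does not set let-7a apart. How many other pairs of passenger and guide separate the lines was not counted, and the let-7a-3p reads are those already compared in RPM.

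The difference in the summed let-7a ratio came from let-7a-3p. Taken alone, it had 0.197 to 0.942 reads per 1000 let-7a-5p reads in EV and 2.02 to 6.23 in R273H. The let-7a-2-3p strand had 0.304 to 2.17 in EV and 0.312 to 1.56 in R273H, with overlap. The guide let-7a-5p itself had 6692 and 8457 normalized counts in untreated EV and 8246 and 5710 in untreated R273H, and its log2 fold change was -0.13 (adjusted p = 0.757, limma). Under etoposide it was -0.78 (adjusted p = 0.178, edgeR), so the guide was not called in the direction of let-7a-3p in either comparison.

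**Figure D3:**
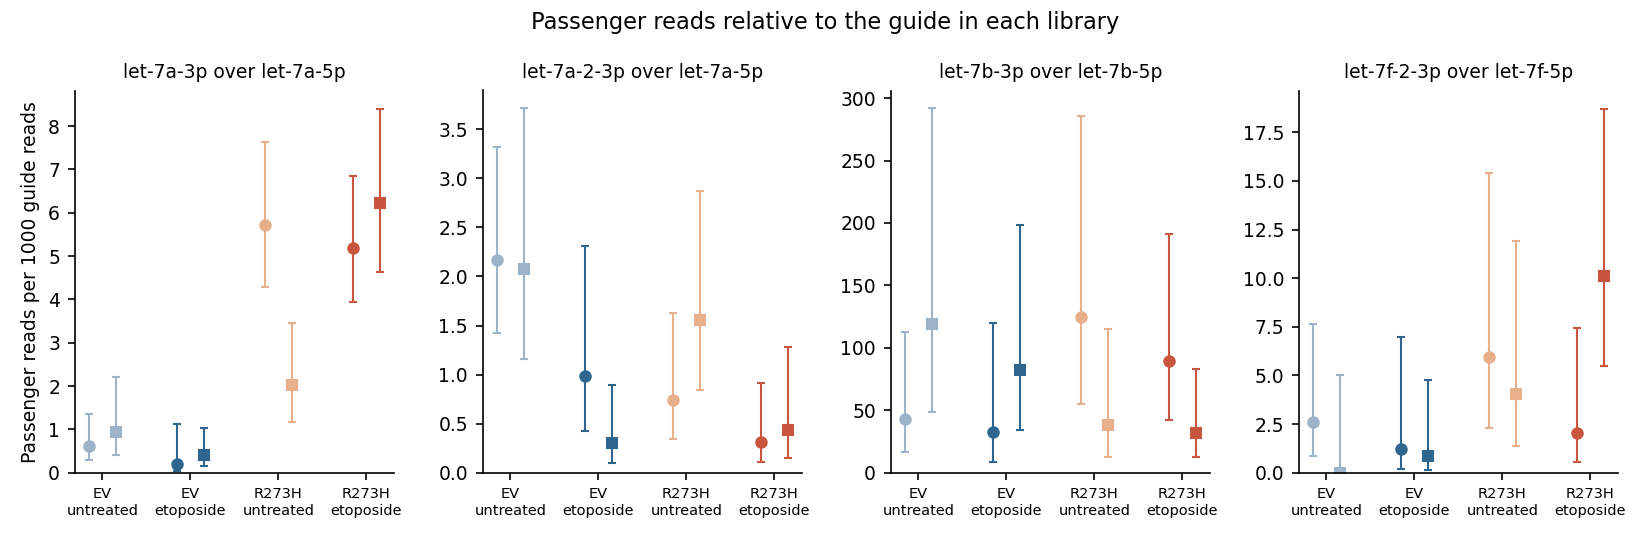
Passenger reads per 1000 reads of the guide (y axis, a separate linear scale per panel) in the 8 libraries by line and treatment (x axis). The guides let-7a-5p and let-7f-5p come from 3 and 2 hairpins, so only the let-7b panel compares arms of 1 hairpin. Circles are replicate 1, squares replicate 2 and bars 95% Wilson intervals. The R273H libraries of let-7a-3p over let-7a-5p lie at 2.02 to 6.23 and the EV libraries at 0.197 to 0.942, without overlap, while the lines overlap in the other panels.

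The passenger strand of let-7b, whose hairpin is the neighbour of MIRLET7A3 on chromosome 22, showed no called change. It had 4 and 5 reads in untreated EV, 2 and 5 in treated EV, 6 and 3 in untreated R273H and 7 and 4 in treated R273H. In RPM these were 7.38 to 20.0, and the groups overlapped in each comparison. The log2 fold change of R273H against EV was -0.18 ± 0.65 (SE, adjusted p = 0.86, limma) in untreated cells and -0.27 (edgeR) under etoposide. After etoposide it was -0.42 ± 0.81 (SE) in EV and -0.30 in R273H (limma).

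The few reads of let-7b-3p leave wide intervals. Its pooled ratio per miRNA read of R273H to EV was 0.916 (exact interval 0.322 to 2.61) in untreated cells and 1.06 (0.374 to 3.21) under etoposide. In untreated cells this interval overlapped that of let-7a-3p (2.56 to 10.4). Under etoposide it ended below that of let-7a-3p (5.17 to 39.4). These intervals cover counting error only, and whether let-7b-3p differed from let-7a-3p was not tested. The let-7b precursor had the highest passenger share among the 3 guides compared, with 32.3 to 119 let-7b-3p reads per 1000 let-7b-5p reads in EV and 32.0 to 125 in R273H (exact permutation p = 0.778).

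The passenger strand of let-7f-2, from the X chromosome, was the rarest of the 4. It had 3 and 0 reads in untreated EV, 1 and 1 in treated EV, 4 and 3 in untreated R273H and 2 and 10 in treated R273H. The count of 0 in that EV library allows up to 12.01 RPM when 3 reads are taken as the limit, and its Wilson interval ends at 15.4 RPM. The treated R273H libraries were 3.95 and 28.7 RPM, so 1 library held most of the reads of that group. In untreated cells the R273H libraries (7.38 and 8.85 RPM) lay above the EV libraries (0 and 5.59 RPM), as for 29.6% of 334 miRNAs. In the tables of untreated cells and of EV the strand did not pass the filter. Without the filter its log2 fold change was 1.30 between the untreated lines (adjusted p = 0.412, limma) and 0.20 after etoposide in EV (adjusted p = 0.944, limma), neither called.

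Under etoposide let-7f-2-3p had a log2 fold change of 1.55 for R273H against EV (adjusted p = 0.435, edgeR), and after etoposide in R273H it was -0.18 (limma), neither called. Pooled per miRNA read it was 2.14-fold higher in untreated R273H (exact interval 0.488 to 12.8) and 4.03-fold higher under etoposide (0.898 to 37.1), and both intervals include 1. Per 1000 let-7f-5p reads it was 2.60, 0, 1.23 and 0.842 in the EV libraries and 5.97, 4.04, 2.04 and 10.1 in the R273H libraries. The mean difference of 4.38 per 1000 had an exact permutation p of 0.0556 (adjusted 0.0741), the smallest possible, and the lines overlapped. The guide let-7f-5p is also made by MIRLET7F1, so this ratio mixes both hairpins.

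**Figure D4:**
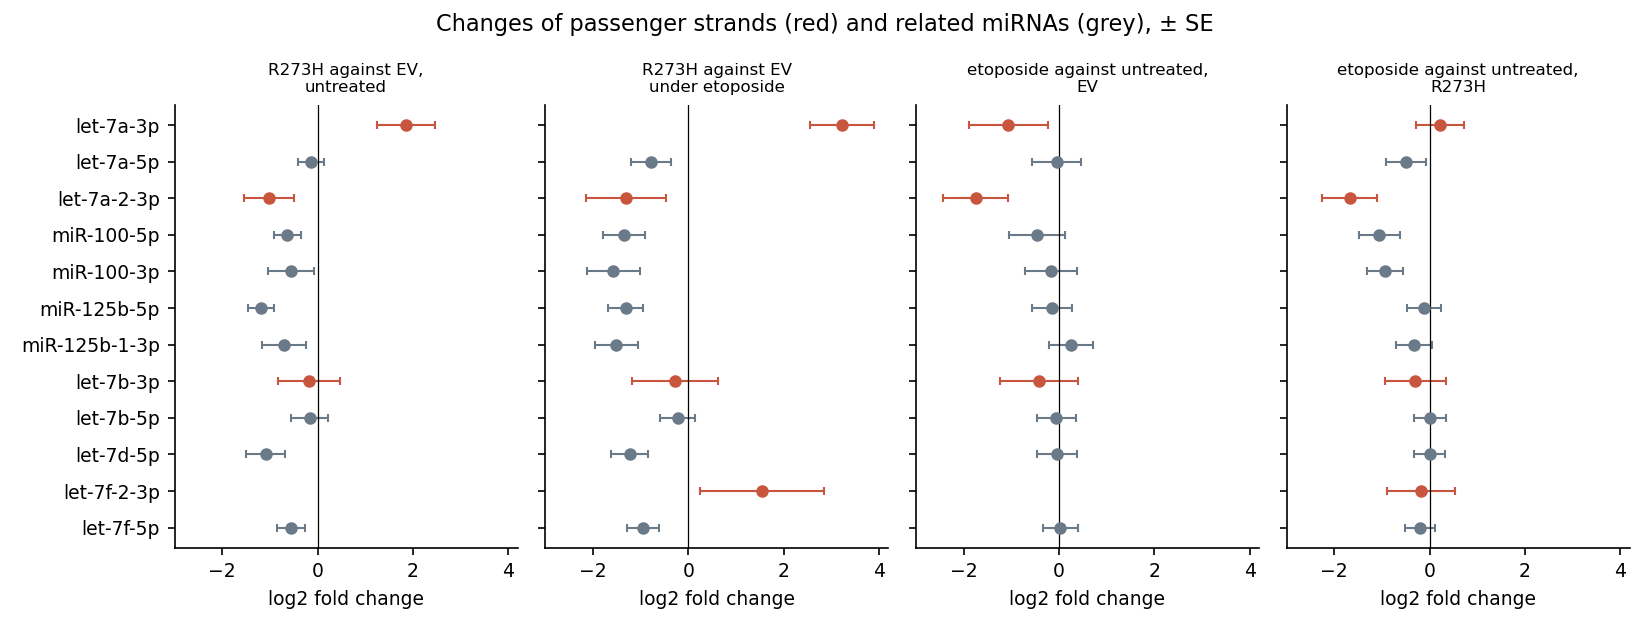
Log2 fold changes with standard errors (x axis) of the passenger strands (red) and of the guides and cluster partners (grey, one per line of the y axis) in 4 comparisons. The panel under etoposide is the edgeR fit of all 8 libraries and the others are limma fits of the separate tables. A missing point did not pass the filter. Only let-7a-3p lies to the right at 1.86 and 3.23 in both comparisons of R273H with EV with a call.

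The comparisons of R273H with EV and of etoposide with untreated cells share the untreated libraries, so their values are not independent. Over the passenger strands tested, the median log2 fold change of R273H against EV was -0.18 in untreated cells (3 strands), beside 0.10 for all miRNAs, and 0.64 under etoposide (4 strands), beside 0.047. After etoposide it was -1.06 in EV (3 strands), beside -0.035, and -0.24 in R273H (4 strands), beside 0.015. The medians of 4 strands include let-7f-2-3p, which those of 3 strands do not. That strand had 5 reads in EV and 19 in R273H, a mean of 3.0 reads, just at the filter of the edgeR fit. The medians of 3 and of 4 strands thus cover different strands, and a shift between them was not tested. In each comparison with a call, it was 1 strand that met both criteria, let-7a-3p between the lines and let-7a-2-3p after etoposide.

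The miRNAs of the chromosome 11 cluster were read beside let-7a-2-3p. The hairpins of miR-100 and miR-125b-1 lie 5635 and 46676 bases from MIRLET7A2, in introns of MIR100HG and on the same strand. In untreated cells all 4 arms of these hairpins had negative log2 fold changes in R273H against EV. The 1 called of 4 was miR-125b-5p, with 3440 and 2356 normalized counts in EV and 1237 and 1259 in R273H (-1.19, adjusted p = 0.00542, limma), while 10.9% of all 304 miRNAs tested were called lower. The same strand is also made by another hairpin, MIR125B2. Under etoposide 4 of 4 were called lower in R273H, with log2 fold changes of -1.57 to -1.31 (largest adjusted p = 0.0287, edgeR), while 15.3% of all 334 miRNAs tested were called lower. The let-7a-2-3p estimates, -1.01 and -1.31, were not called.

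After etoposide 0 of 4 partners met both criteria in EV, where 6.76% of all miRNAs did, and their log2 fold changes were -0.46 to 0.26. In R273H 1 of 4 did, where 6.16% of all miRNAs did, so with 4 partners the counts say little. This was miR-100-5p, which fell from 15387 and 10428 to 7731 and 4815 normalized counts (-1.05, adjusted p = 0.495, limma). The passenger arm miR-100-3p went from 18.6 and 17.7 to 9.07 and 8.91 (-0.94, adjusted p = 0.495, limma), under 2-fold. Whether let-7a-2-3p responded differently from its partners was not tested.

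Among the guides of the same hairpins, let-7d-5p was the only one called in untreated cells, lower in R273H (60.9 and 71.7 against 25.7 and 36.4 normalized counts, log2 fold change -1.09, adjusted p = 0.0668, limma). MIRLET7D lies 2790 bases from MIRLET7A1, one of the hairpins that give let-7a-3p. Of all 9 let-7 guides, 6 had negative log2 fold changes in untreated R273H, against 139 of 304 miRNAs, and 1 was called lower, a share near the 10.9% of all miRNAs. Under etoposide 9 of 9 were negative, against 164 of 334 miRNAs, and 3 were called lower (edgeR), beside 15.3% of all. Of the 9, let-7e-5p was near 0 (-0.0069), so its sign carries no weight. No guide was called higher in R273H in either comparison, whereas let-7a-3p was.

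A further 6 let-7 passenger strands had rows, with 28 reads in total and none past the filter. These were let-7g-3p with 13 reads over the 8 libraries, let-7e-3p with 4, let-7f-1-3p with 4, let-7i-3p with 3, miR-98-3p with 3 and let-7c-3p with 1. MIRLET7F1 lies 303 bases from MIRLET7A1, and its passenger strand had 1 read in the 4 EV libraries and 3 in the 4 R273H libraries, too few to compare with let-7a-3p.

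Only let-7a-3p reached the mean of 20 reads set for a comparison of patterns. Over the 8 libraries and 181 miRNAs, the highest Pearson correlations of log2(RPM + 1) with let-7a-3p were those of miR-19b-3p (0.914), miR-20a-5p (0.903) and miR-18a-5p (0.893). All 3 are known as products of the miR-17-92 cluster, and miR-19b-3p also comes from a copy on the X chromosome. With 16 reads in the 4 EV libraries and 152 in the 4 R273H libraries, let-7a-3p reached that mean through R273H. Its pattern is therefore largely the difference between the lines, and a miRNA higher in R273H tends to correlate with it. A link to these 3 miRNAs beyond that difference was not tested. The points share the libraries and their depth, and the values describe these 8 libraries only.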

How the data were processed

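Small RNA was sequenced on an Ion PGM. The authors trimmed the reads, kept lengths of 17 to 35 bases, mapped them to miRBase along with tRNA, rRNA and adapters, and normalized with DESeq. The deposited signal is normalized counts, meaning reads over the size factor of the library, in 3 separately normalized tables. All values (100%) were whole multiples of 1 read within 0.0051, and the recovered reads were used for edgeR, shares and ratios. The authors' own fold changes and p-values were not used.

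Each table was tested with limma 3.58.1 (R 4.3.3, eBayes with trend) after adding a pseudocount of 1 and taking log2, keeping miRNAs at a mean of 3 or more, with Benjamini-Hochberg adjustment. A call was p under 0.05 with at least 2-fold change. Comparisons across tables used edgeR 4.0.16 (quasi-likelihood, TMM) on the recovered reads of all 8 libraries, where the standard error was derived from the F statistic. DESeq2 1.42.0 was an alternative. The tests of 2 against 2 libraries were run on simulated counts with the same dispersion for all miRNAs. This checked the code and does not give the error rates in these libraries, and the fit of all 8 libraries was not included. Other calculations used Python 3.11.15 with scipy 1.17.1, and positions came from GENCODE lifted to GRCh37.

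The named miRNAs are the listed strands, their guides, other let-7 arms, cluster partners and, by correlation, the 3 most similar miRNAs. Members and lists were chosen with earlier results of these data known. The ratio for let-7d was not run, which left 4 permutation tests.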

Additional observations from a re-analysis of the deposited data

How the results depend on the processing

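Depth is a limit, since 1 to 50 reads stand behind each value of a detected strand, and so are the 2 libraries per group. With 1 library left in a group it is assumed to vary like the others. The call of let-7a-3p under etoposide was kept in 5 of 5 alternatives (3.22 to 3.39, adjusted p 3.24e-05 to 0.00134), and the one in untreated cells in 8 of 9 (1.43 to 2.23, adjusted p 0.0147 to 0.192). The exception was the replicate block (1.86, adjusted p = 0.192, limma). Same-numbered libraries showed no broad shared deviation over all miRNAs (correlations of -0.027, 0.037 and -0.083). This cannot exclude that they were prepared together, and the treated groups were not compared with each other in this way. With the block the untreated let-7a-2-3p difference was called (adjusted p = 0.148) and the let-7b-3p interaction was 0.013. The causes of changed values were not tested, except that filters change how many miRNAs are tested.

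The etoposide call of let-7a-2-3p held in 8 of 8 alternatives in EV (-1.95 to -1.18, adjusted p 0.0908 to 0.673) and in 7 of 8 in R273H (the exception DESeq2, -2.09, adjusted p = 0.781). At a mean of at least 10 let-7a-2-3p was filtered out of both etoposide tables, which left 0 passenger strands to test in EV and 1 in R273H, so the 0 calls there are no lost calls. With DESeq2 0 were called in R273H. In untreated cells 2 passenger strands were called with limma without trend and 2 with edgeR, against 1. Of all miRNAs after etoposide in EV, 13 met both criteria with a pseudocount of 5, 10 at a mean of at least 10 and 13 with DESeq2, against 20. In R273H the counts were 11, 10 and 10, and 33 without a filter, against 21. The interaction gave 5 at a mean of at least 10 and 27 without a filter, against 12. Of the 83 called between untreated lines 50 were higher and 33 lower, against 35 higher and 44 lower with edgeR, 29 higher and 36 lower with DESeq2, and 30 of each where the mean was at least 10. The median of all miRNAs shifted by -0.19 with edgeR there and by -0.11 under equal upper quartiles after etoposide in R273H. Values near 0 changed sign. After etoposide in R273H let-7a-3p was -0.028 with edgeR and -0.071 with DESeq2, and let-7f-2-3p 0.10 and 0.034. The let-7a-2-3p interaction was 0.053 and that of let-7b-3p 0.14 without a filter, the latter 0.057 with DESeq2. The let-7b ratio between lines was -0.031 on a log2 scale.

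With 1 library left out, 52 to 78 miRNAs were called between untreated lines, 9 to 19 after etoposide in EV, 9 to 32 in R273H, 67 to 102 between treated lines and 10 to 27 in the interaction. Passenger strands called were 0 to 1, 0 to 1, 0 to 2, 1 and 0 to 1. The log2 fold change of let-7b-3p ran from -0.81 to 0.44 between untreated lines, from -0.76 to 0.47 between treated lines, from -1.05 to 0.21 after etoposide in EV and from -0.79 to 0.19 in R273H. After etoposide in R273H let-7a-3p ran from -0.74 to 1.19 and let-7f-2-3p from -1.02 to 0.65. The interaction ran from 0.30 to 2.31 for let-7a-3p, from -0.44 to 0.26 for let-7a-2-3p, from -0.71 to 0.76 for let-7b-3p and from -3.38 to 1.27 for let-7f-2-3p. The difference per 1000 guide reads ran from -19.4 to 23.9 for let-7b-3p, 2.91 to 4.35 for both let-7a strands and 2.35 to 6.40 for let-7f-2-3p, and that of the share from -61.5 to -41.3 percentage points.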
